A study of Mus musculus with 8 samples.

Results

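The ERBB receptors and their ligands were examined in mouse liver, across 8 arrays that compare livers lacking Hmgb1 in hepatocytes with floxed controls. The set comprised the 4 receptor genes Egfr, Erbb2, Erbb3 and Erbb4, the ligand genes Areg, Btc, Hbegf, Nrg1 and Nrg4, and Errfi1, an intracellular inhibitor of the receptors. Members were taken from probe sets that GEO's array annotation assigns to exactly 1 gene symbol, and where a gene had several, the one with the highest mean over the 8 arrays would stand for it. Of the 10 named genes, 9 were measured in this way, each on 1 probe set, among 19938 genes tested in all. Areg, which encodes amphiregulin, had no probe set named for it in the annotation used here and has no value below. A probe set shared by Erbb2 and another gene was left out. Members were chosen by reading the log2 intensities of deleted against control livers, starting from Erbb4, so their differences are given as descriptions, without p-values.

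The deleted group consisted of 4 liver samples from male mice 8 weeks old in which Hmgb1, encoding an abundant chromatin protein, was deleted by Albumin-Cre, a recombinase expressed from a hepatocyte promoter. The control group consisted of 4 liver samples from male littermates of the same age with floxed Hmgb1 alleles. Cre appears in the titles of deleted samples alone, so an effect of the recombinase and one of losing Hmgb1 cannot be told apart. Liver cells in which Albumin-Cre was never active should keep Hmgb1 in this model. The labels conflict on tissue, with whole liver in the protocol and stellate cells in the characteristics, and on strain, with C57Bl/6 in the former and Balb/c in the latter. The labels leave unsaid whether each array is its own animal, and errors and p-values measure the spread between arrays, which may be technical.

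ERBB receptors are receptor tyrosine kinases that act as dimers. EGFR binds amphiregulin, betacellulin (encoded by Btc) and HB-EGF (encoded by Hbegf), and ERBB4 binds betacellulin, HB-EGF and the neuregulins encoded by Nrg1 and Nrg4. ERBB2 has no known ligand of its own, and ERBB3 binds neuregulins but has little kinase activity, so that both signal mainly through partners. Hepatocytes carry abundant EGFR and ERBB3, and EGFR ligands act as growth signals in liver regeneration. NRG4 is known as a factor released by brown fat that acts on hepatocytes.

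The receptor genes are shown here through the sequence around the start of Erbb4, the receptor gene with the largest difference, and of its relative Egfr. RefSeq promoter windows of 300 bases on GRCm38.p6, from 250 bases before to 50 after an annotated start, were found for 7 of the 10 genes. The Erbb4 window lies at chr1:69108010-69108309 on the minus strand and the Egfr window at chr11:16751953-16752252 on the plus strand. Capitals mark CpG dinucleotides.
Erbb4: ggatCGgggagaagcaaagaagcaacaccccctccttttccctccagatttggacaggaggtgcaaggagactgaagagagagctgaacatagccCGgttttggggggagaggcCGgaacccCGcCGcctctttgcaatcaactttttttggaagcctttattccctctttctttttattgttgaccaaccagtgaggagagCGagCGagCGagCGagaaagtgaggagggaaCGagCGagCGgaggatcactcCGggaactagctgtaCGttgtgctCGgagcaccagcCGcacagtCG
Egfr: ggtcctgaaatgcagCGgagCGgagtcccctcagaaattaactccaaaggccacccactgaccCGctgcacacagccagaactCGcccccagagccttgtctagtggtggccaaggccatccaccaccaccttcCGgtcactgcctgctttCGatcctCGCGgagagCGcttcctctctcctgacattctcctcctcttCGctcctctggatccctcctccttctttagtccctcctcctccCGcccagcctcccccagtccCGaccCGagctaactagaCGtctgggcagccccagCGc
The Erbb4 window held 17 CpG dinucleotides at a GC content of 55.3%, and the Egfr window 15 at 62.3%. Of 32851 promoter windows of this length, 68.6% had fewer CpG dinucleotides than Erbb4 and 65.4% fewer than Egfr. A GC box (GGGCGG on either strand) was found once in the Egfr window and not in that of Erbb4, and 35.7% of all windows held at least 1. A TATA box (TATAAA on either strand), held by 13.6% of all windows, was found in neither. These matches describe the letters of the windows and no measured binding.

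Values are log2 intensities of probe sets, so a difference of 1 is a doubling, and levels of different genes are not compared because probe sets differ in response. Array medians lay between 6.08 and 6.22. On the 8 arrays the hepatocyte product albumin (Alb) ranged from 13.26 to 14.03, the stellate cell genes Lrat and Des from 7.82 to 8.87 and from 6.65 to 6.99, and the bile duct genes Krt19 and Epcam from 6.11 to 6.30 and from 4.71 to 5.38. The deleted gene itself had a log2 intensity of 4.60 ± 0.31 (SD, n = 4) on deleted and 5.50 ± 0.19 (SD, n = 4) on control arrays on its single-symbol probe set, and Hmgb1 fell by 0.91 (SE 0.14, limma adjusted p = 0.0216). Its signal was weak, below all array medians, with a lower mean in only 16.4% of genes. The direction held in all 17 alternatives that gave it a value, but the call was lost without deleted 3, deleted 4, control 3 or control 4, with adjusted p up to 0.0797. Over all genes, 138 of 19938 passed an adjusted p of 0.05, 59 higher and 79 lower in deleted livers, a split that became 153 and 111 after quantile normalization was applied again and 33 and 28 with arrays centred on their medians. Floxed control 1 stood apart on the first principal component, at −26.6 against 6.33 to 9.89 for the other controls, and deleted 4 had the lowest maximum, 13.58 against 14.23 to 14.46 on the other arrays.

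Among the receptors, Erbb4 differed between the groups and the others did not separate them. Erbb4 had log2 intensities of 6.88, 6.51, 6.79 and 6.48 on deleted arrays 1 to 4. On control arrays 1 to 4 it had 7.45, 7.63, 7.42 and 7.41. All 4 deleted arrays lay below all 4 controls, with a gap between the highest deleted and the lowest control array that was wider than the range within either group. The group means were 6.67 ± 0.20 (SD, n = 4) and 7.48 ± 0.10 (SD, n = 4), a log2 difference of −0.81 (SE 0.098), or 1.76-fold lower in the deleted livers. Deleted arrays 2 and 4 lay below the median of the genes tested, 6.53, and 59.8% of genes had a lower mean than Erbb4. A lower log2 difference was found for 36 of the 19938 genes, a rank given as description, since this contrast served to choose Erbb4. Erbb4 was the 1 member of 9 past the adjusted threshold in the limma fit over all genes, where 0.692% of genes passed (0.396% lower and 0.296% higher), and nothing is read from this count since the contrast served to choose the set. In 18 alternatives the difference stayed between −0.88 (without deleted 1) and −0.75 (without deleted 4), and without both control 1 and deleted 4 it was −0.76.

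In whole liver, fewer cells of a type and less RNA per cell cannot be told apart. Of the 12 hepatocyte markers measured, 12 had lower means in deleted livers and 0 passed the threshold, with a median log2 difference of −0.15 against 0 over all genes. Of the 12, 2 (16.7%) had an unadjusted p under 0.05, beside 9.46% of all genes, and the groups overlapped for all 12. The mean log2 intensity of the hepatocyte markers per array ran from 12.6 to 13.0 on deleted arrays, with deleted 4 lowest, and from 12.9 to 13.0 on controls. Of 10 sinusoidal endothelial markers, 9 had lower means and 1 passed (Clec4g, a lectin of these cells), beside 0.692% of all genes. An unadjusted p under 0.05 was found for 6 of the 10 (9.46% of all genes). Deleted arrays all lay below the controls for 3 of the 10 (2.3% of all genes). Their means per array did not overlap, at 8.88 to 9.0 on deleted and 9.08 to 9.23 on control arrays. Erythroid markers were lower for 6 of 7 without any passing (limma, 0 of 7). Of the 7, 3 (42.9%) had an unadjusted p under 0.05, beside 9.46% of all genes. Deleted arrays all lay below the controls for 3 of the 7, beside 2.3% of all genes. Erythroid means per array ran from 7.21 to 7.33 on deleted and from 7.45 to 7.62 on control arrays. The means of stellate cell markers (11 measured, 4 higher and 7 lower) and of macrophage markers (11 measured, 9 higher and 2 lower) overlapped between groups, as did those of bile duct, lymphocyte and neutrophil markers. At an unadjusted p under 0.05 there were 2 stellate cell (18.2%), 1 macrophage (9.09%) and 1 of 7 bile duct markers (14.3%). There were 0 of 9 lymphocyte and 0 of 8 neutrophil markers. Groups did not overlap for 1 bile duct marker (deleted below) and 1 lymphocyte marker (deleted above), beside 5.57% of all genes. The part of these shifts in the Erbb4 difference was not tested.

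Egfr, the main receptor for EGF-type ligands on hepatocytes, had log2 intensities of 11.72, 11.68, 11.80 and 11.61 on deleted and 11.51, 12.06, 12.18 and 12.01 on control arrays. Control 1 was the lowest of all 8 arrays and the other 3 controls were the highest, so the groups overlapped through that array alone. The log2 difference was −0.24 (SE 0.13). Without control 1 it was −0.38 (SE 0.069), and Egfr was then past the threshold over all genes, as it also was when limma's array weights gave control 1 the smallest weight (−0.35). As for Erbb4, nothing is read from these calls, since the contrast served to choose the set and control 1 was seen to cause the overlap. Without control 3 the difference was −0.16.

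Erbb3, the partner receptor with weak kinase activity, had 9.92, 10.22, 10.38 and 10.04 on deleted and 10.11, 10.30, 10.39 and 10.36 on control arrays. Its log2 difference of −0.15 (SE 0.10) was smaller than the spread within the deleted group (SD 0.20), and it ranged from −0.23 without deleted 3 to −0.077 without deleted 1. Erbb2, the receptor without a ligand, had 6.39, 6.09, 6.17 and 5.93 on deleted and 6.52, 6.08, 6.20 and 6.04 on control arrays, close to the array medians. Array 1 was the highest in each group, and the log2 difference of −0.065 (SE 0.12) turned to 0.038 without control 1. Errfi1, whose product (also called MIG6) binds the kinase domain of ERBB receptors and blocks it, had 12.54, 12.56, 12.49 and 12.29 on deleted and 12.65, 12.71, 12.71 and 12.75 on control arrays. The groups did not overlap, with a log2 difference of −0.24 (SE 0.071) that did not pass over all genes and that shrank to −0.14 after quantile normalization was applied again. Groups without overlap were found for 2 of 9 members, Erbb4 and Errfi1, and for 5.57% of all genes, with 2.3% having deleted arrays below and 3.28% above the controls. Nothing is read from the 2 of 9 either, since the contrast served to choose the set.

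**Figure D1:**
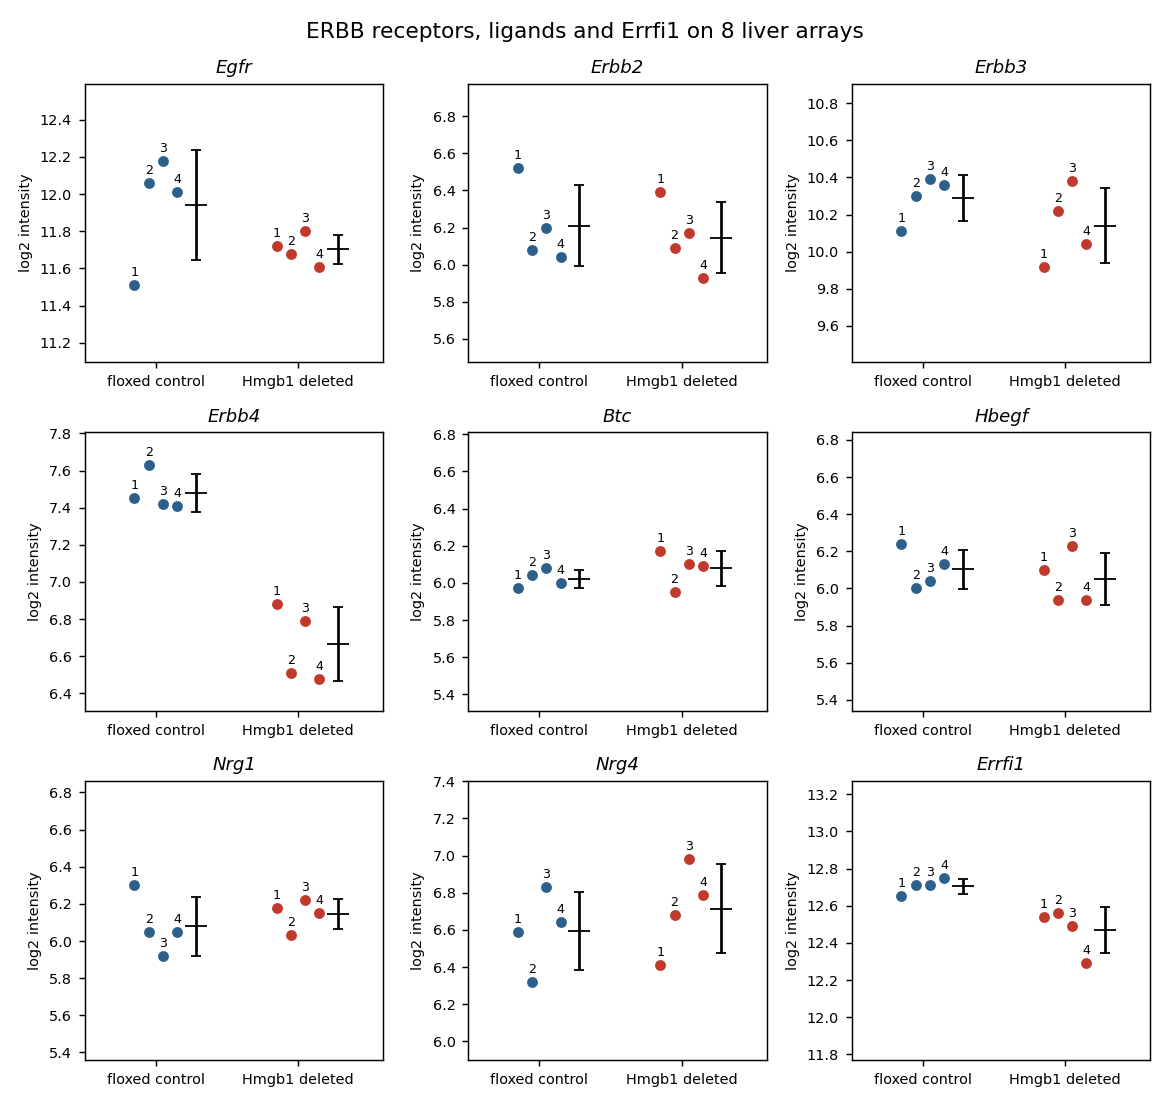
Log2 intensity of each measured gene on the 8 arrays, floxed controls in blue and Hmgb1 deleted livers in red, with replicate numbers beside the points, and mean and SD (n = 4) as black bars. Each panel spans the same height on the log2 scale, and the groups are separate for Erbb4 and Errfi1, while control 1 lies lowest of all arrays for Egfr at 11.51.

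The ligand genes showed small differences on overlapping groups. Nrg4, the neuregulin that acts on ERBB4, had log2 intensities of 6.41, 6.68, 6.98 and 6.79 on deleted and 6.59, 6.32, 6.83 and 6.64 on control arrays. Its log2 difference was 0.12 (SE 0.13), with a range from 0.028 without control 2 to 0.22 without deleted 1. Nrg1, the broadly expressed neuregulin, ranged from 6.03 to 6.22 on deleted and from 5.92 to 6.30 on control arrays, with a log2 difference of 0.065 (SE 0.084; 0.012 without control 3 to 0.14 without control 1). Btc, encoding betacellulin, ranged from 5.95 to 6.17 and from 5.97 to 6.08, with a log2 difference of 0.055 (SE 0.064; 0.024 without deleted 1 to 0.098 without deleted 2). Hbegf, encoding HB-EGF, ranged from 5.94 to 6.23 and from 6.00 to 6.24, with a log2 difference of −0.050 (SE 0.083; −0.11 without deleted 3 to −0.0042 without control 1). The values of Nrg1, Btc and Hbegf lay close to the array medians, and no background call per probe set was used here. Of the 9 members, 3 had a higher and 6 a lower mean in deleted livers, and their median log2 difference was −0.065, against 0 over all genes.

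**Figure D2:**
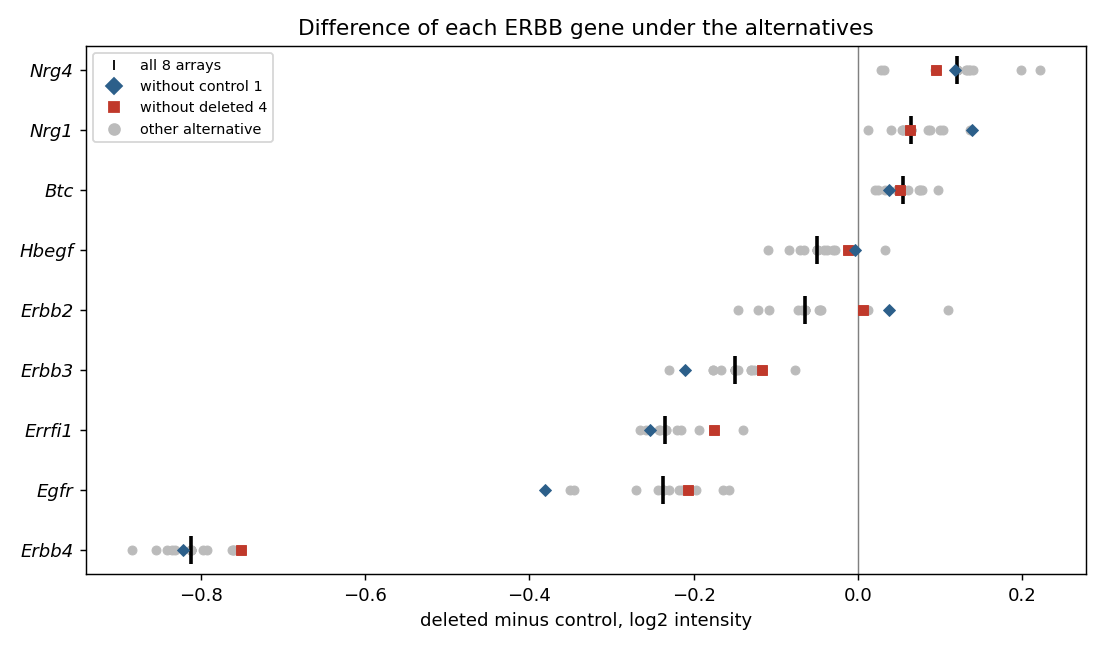
Log2 difference, deleted minus control, of each measured gene with all 8 arrays (black bar), without control 1 (blue), without deleted 4 (red) and under the other alternatives (grey). Erbb4 stays between −0.88 and −0.75, Egfr reaches −0.38 without control 1, and Erbb2 lies on both sides of 0.

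The wider pathway was described through lists of genes other than the members, of which 137 of 146 were measured. In these lists 1 gene passed the threshold over all genes, a share of 0.730% beside 0.692% of all genes tested, with 64 higher and 72 lower and a median log2 difference of −0.0075. At an unadjusted p under 0.05 there were 19 of 137 (13.9%), beside 1886 of all 19938 genes (9.46%). That gene was Src, the cytoplasmic tyrosine kinase that couples to ERBB receptors among many others. Src had log2 intensities of 7.14, 7.11, 7.31 and 7.07 on deleted and 6.69, 6.64, 6.70 and 6.76 on control arrays. All 4 deleted arrays lay above all 4 controls, and Src rose by 0.46 (SE 0.067, limma adjusted p = 0.0145). It passed in all 18 alternatives, with adjusted p from 0.0027 to 0.0493. The lists were chosen with earlier results of these data known, so these p-values are no independent test of Src.

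None of the 6 other ligand genes passed (0 of 6, limma, and 0 at an unadjusted p under 0.05), with 3 higher and 3 lower. Tgfa, encoding the EGFR ligand TGF-alpha, had a log2 difference of 0.12 (SE 0.070), Ereg, encoding epiregulin, of −0.12 (SE 0.084) and Nrg3 of 0.072 (SE 0.062). Leaving out 1 array took these to 0.076 (Tgfa, without control 3), −0.063 (Ereg, without deleted 4) and 0.036 (Nrg3, without control 4). Ereg and Btc belong to a run of neighbouring ligand genes on 1 chromosome that RefSeq orders as Epgn, Ereg, Areg and Btc. Epgn was measured too, with a log2 difference of −0.085. None of the measured genes of this run separated the groups. Among proteases that release ligands or cut the receptors, 0 of 18 passed (limma; 0 at an unadjusted p under 0.05), 12 being higher and 6 lower. Rhbdf2, encoding the iRhom2 partner of the sheddase ADAM17, had 0.25 (SE 0.12), which became 0.12 without deleted 3, the highest array. Bace1 had 0.14 (SE 0.069) and Bace2 −0.15 (SE 0.087; −0.083 without deleted 1).

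Of 31 measured adaptor, RAS-ERK and PI3K-AKT genes, Src alone passed, with 15 higher and 16 lower. An unadjusted p under 0.05 was found for 6 (19.4%, beside 9.46% of all genes). Groups did not overlap for 4 of the 31, beside 5.57% of all genes. The PI3K regulatory subunit genes Pik3r1 and Pik3r3 had log2 differences of −0.34 (SE 0.090, adjusted p = 0.161) and 0.22 (SE 0.062, adjusted p = 0.185) and did not pass. Among receptor inhibitors, ubiquitin ligases and sorting genes 0 of 27 passed (limma; 7, or 25.9%, at an unadjusted p under 0.05 beside 9.46% of all genes), with 13 higher, 13 lower and 1 equal. A pair of CBL ubiquitin ligase genes lay on opposite sides, with Cblc at 0.33 (SE 0.093) and Cblb at −0.29 (SE 0.095), and the RAS-ERK inhibitor Spry4 had −0.31 (SE 0.10).

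Genes that respond early to growth factors and ERK held 0 of 25 past the threshold (limma; 3, or 12.0%, at an unadjusted p under 0.05, near the 9.46% of all genes), with 8 higher, 17 lower and a median log2 difference of −0.053. The ERK and p38 phosphatase gene Dusp1 had −0.52 (SE 0.14, adjusted p = 0.150), the transcription factor gene Klf10 −0.51 (SE 0.12, adjusted p = 0.117) and Fos −0.52 (SE 0.22, adjusted p = 0.459). For Fos, control 1 stood at 7.75 against 6.64 to 6.77 on the other controls and 6.22 to 6.63 on deleted arrays, and without it the log2 difference was −0.26. Of 30 measured receptor tyrosine kinases outside the family, 0 passed (limma; 3, or 10%, at an unadjusted p under 0.05, also near the 9.46% of all genes), with 13 higher and 17 lower. Fgfr4, the hepatocyte receptor for FGF15, had −0.33 (SE 0.072, adjusted p = 0.0827), Epha2 −0.37 (SE 0.12) and Fgfr1 −0.25 (SE 0.085). Without control 1, 5 pathway genes passed, namely Src, Pik3r1 (−0.41), Klf10 (−0.59), Fgfr4 (−0.38) and Epha2 (−0.48). The count over all 19938 genes rose as well, from 138 with all arrays to 321 without control 1. Without control 3, 2 pathway genes passed, Src and Dusp1 (−0.66), beside 71 of all 19938 genes.

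**Figure D3:**
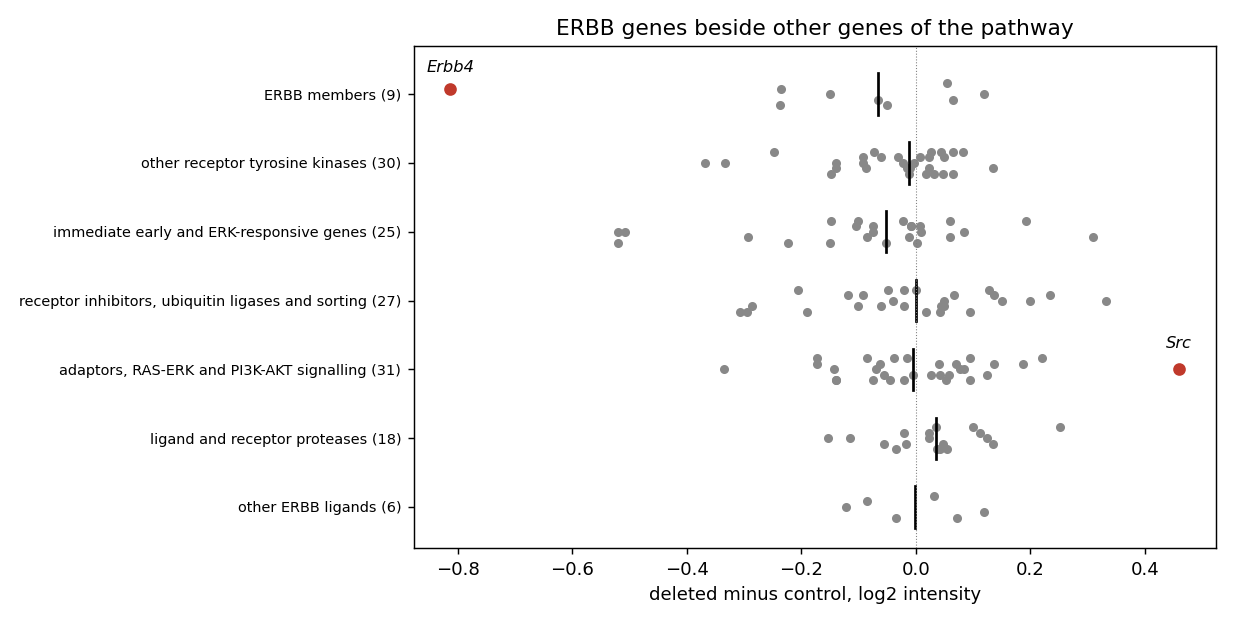
Log2 difference, deleted minus control, of the 9 measured members and of every measured gene of the 6 pathway lists (1 point per gene, number of genes in brackets, black bars for the medians, red for genes past the limma adjusted threshold over all genes). Erbb4 at −0.81 and Src at 0.46 are the red points.

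The genes whose values most resembled those of Erbb4 over the 8 arrays were ranked by Pearson's r, which serves here as a description. Because the groups are separate for Erbb4, r reflects mostly the group difference, and r over deviations from the group means is given beside it, likewise without a test. Differences of genes ranked this way are given without p-values. Scara5, a scavenger receptor that binds ferritin, ranked first, at r = 0.995 (Spearman's rho 0.994; r = 0.995 without deleted 2 and deleted 4, the arrays farthest from the median; 0.975 over deviations from the group means). Scara5 had log2 intensities of 6.49, 6.12, 6.47 and 6.00 on deleted and 7.10, 7.24, 7.0 and 7.0 on control arrays. Within the deleted group both genes were lower on arrays 2 and 4 than on arrays 1 and 3, and within the controls both were highest on array 2. The medians of deleted arrays 1 to 4 had the same order, at 6.18, 6.11, 6.16 and 6.08. Among the controls the highest median was that of control 1, at 6.22, against 6.14 on control 2. The part of such array-wide shifts in this likeness was not tested. The log2 difference of Scara5 was −0.82 (SE 0.11). Tgoln1, a trans-Golgi network protein gene (r = 0.976; 0.739 over such deviations), and Zfp346, a zinc finger protein gene (r = 0.968; 0.916), followed, with log2 differences of −0.29 (SE 0.057) and −0.17 (SE 0.059). The lowest r were those of Zc4h2 (−0.997; −0.987 over such deviations), Eipr1 (−0.995; −0.954) and Lipt2 (−0.985; −0.868). Zc4h2, another zinc finger protein gene, had log2 intensities of 7.18, 7.32, 7.21 and 7.36 on deleted and 6.82, 6.74, 6.84 and 6.86 on control arrays, a log2 difference of 0.45 (SE 0.064), with no overlap of the groups. Eipr1 differed by 0.29 (SE 0.060) and Lipt2, which encodes a lipoyl transferase, by 0.16 (SE 0.055).

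**Figure D4:**
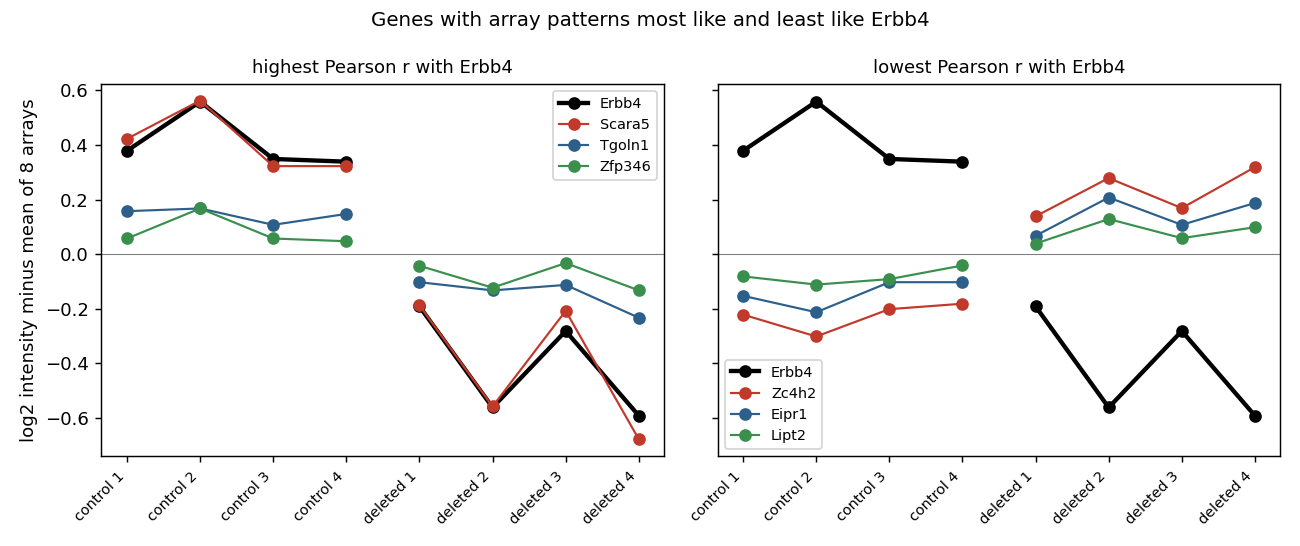
Log2 intensity minus each gene's mean over the 8 arrays for Erbb4 (black) with the 3 genes of highest (left) and the 3 of lowest (right) Pearson's r; lines join the points of 1 gene within a group and replicates have no order. Scara5 follows Erbb4 closely, with both lowest on deleted 4, and Zc4h2 runs the opposite way.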

How the data were processed

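RNA of 8 liver samples was hybridised to Affymetrix arrays. The deposited values are log2 intensities of 35556 probe sets, made by the authors with RMA per the submitters' processing notes, which give no version. GEO's annotation gave 1 symbol to 21789 probe sets, several to 1621 and none to 12146. Each of 19938 genes was represented by its single-symbol probe set of highest mean. Groups of 4 were compared by 2-sided moderated tests without covariates (R 4.3.3, limma 3.58.1), with Benjamini-Hochberg adjustment over all genes and a threshold of 0.05. Promoters and figures were handled in Python 3.11.15 with matplotlib 3.10.9. Scripts were tested on simulated data.

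The members and lists were chosen with earlier results of these data known. Named were all members, the 3 list genes of smallest p per pathway list with any past the threshold, and the 3 genes of highest and lowest r with Erbb4. Listed Nrdc was matched as Nrd1 and Tf as Trf. Alternatives covered dim genes, probe set choice, normalization, variance models, array weights, a replicate block and arrays left out. Arrays give no read depth, so their number limits precision.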

Additional observations from a re-analysis of the deposited data

Results flagged for a closer look

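Named genes were searched for single arrays whose distance to the next value took up most of the range of their group of 4. This held for 8 of 82 groups, against about 1 in 20 (4.1 groups) by chance, and 0 of the 8 belonged to the 9 measured members. Egfr on control 1, its lowest array at 11.51, did not reach this cut. On floxed control 1, Fos stood at 7.75 (log2 intensity), where its other controls had 6.64 to 6.77, and the stellate cell gene Lrat 7.82 against 8.76 to 8.87. On control 2, Zfp346 had 6.96 against 6.84 to 6.85 and Epcam 5.38 against 5.08 to 5.12, and Cps1 had 13.01 against 13.02 on each other control, a gap of the last decimal given. On control 3, Ereg had 5.49 against 5.68 to 5.70. On deleted 3, Tgfa had 8.53 against 8.37 to 8.38, and on deleted 4, Alb had 13.26 against 13.93 to 14.03.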

How the results depend on the processing

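The count of genes past the threshold, 138 with all arrays, was 264 after quantile normalization again, 61 with arrays centred on their medians, 526 with array weights and 325 with the replicate block, and it ranged from 37 to 321 when each array was left out in turn. The same alternatives gave 1 ERBB member (Erbb4), except 2 with array weights, where Egfr was added, and 1 to 2 over arrays left out. Pathway genes past the threshold, 1 with all arrays, were 3 after quantile normalization again, 5 with array weights and 4 with the replicate block, and ranged from 1 to 5 over arrays left out. Leaving out control 1 and deleted 4 together, chosen after seeing the data, gave 223 genes, 1 member and 3 pathway genes. The cause of these moves was not tested. The labels do not state that equal replicate numbers mark a litter or batch, and whether they do was not tested. Deviations of equally numbered arrays correlated at 0.45, 0.065, −0.081 and 0.42. Of the 8 arrays, 4 correlated best with their own number, namely deleted 1 with control 1 and deleted 4 with control 4, each way round. Each array had 4 possible partners. Deleted 4 was also the best match of control 2 and control 3, control 1 that of deleted 3, and control 4 that of deleted 2. With the replicate block the pathway genes were Src, Dusp1, Klf10 and Fgfr4. Of the members, Erbb4, Egfr, Erbb3, Errfi1, Nrg1, Nrg4 and Btc kept their sign in each alternative that gave them a value. Erbb2 turned positive with array weights (0.012), without control 1 (0.038), without deleted 4 (0.0067) and without both (0.11), and Hbegf without both (0.033). The filter on dim genes removed Erbb2, Btc, Hbegf and Nrg1.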

Other observations

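The measured protein-coding genes next to Erbb4 in RefSeq's order, chosen for position alone after the values had been read, were Cps1, the first enzyme of the urea cycle, and Ikzf2, a transcription factor gene of lymphocytes. Cps1 had a log2 difference of −0.14 (SE 0.078) and Ikzf2 of −0.045 (SE 0.055), and neither passed the threshold. The deleted arrays of Cps1 ranged from 12.65 (deleted 4) to 13.01, and the controls from 13.01 to 13.02. Ikzf2 ranged from 5.48 to 5.51 on deleted and from 5.50 to 5.61 on control arrays, below all array medians.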
